A study of Mus musculus with 13 samples.

Results

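A group of 10 genes counted in mouse brown adipose tissue is described here: 8 G protein-coupled receptors that sense metabolites, lipids, neuropeptides or catecholamines at the cell surface, the ATP-gated channel gene P2rx5 and the signalling regulator gene Rgs2. They were chosen by gene symbol, from 55357 genes in the deposited table, by someone who already knew results of these data, and the contrast that led to the choice is not recorded. All 10 genes were in the table and 9 of them were among the 11073 genes with enough counts to be tested. Adra2a was not, because it held 4 counts over all libraries. The fold changes and adjusted p-values of these genes therefore describe them and place them within a fit over the whole table, and are not independent evidence that they respond.

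The tissue was brown fat, the depot that burns fuel to make heat, from mice whose Stim1 and Stim2 genes, encoding sensors of the calcium stores of the endoplasmic reticulum, were deleted with Cre driven by the adiponectin promoter, or from mice labelled with the floxed alleles (fl/fl) and no Cre. The knockout genotype is labelled Stim1/2_Adp-Cre and the control genotype Stim1/2_fl/fl, and the 4 groups were knockout in cold (KO cold, 4 libraries), control in cold (control cold, 4), knockout at room temperature (KO RT, 3) and control at room temperature (control RT, 2). Cold meant 4 °C for 6 h. Libraries carried a tag from the 3′ end of each transcript and held 1570684 to 2016178 counts (median 1800685). The adiponectin promoter is active in adipocytes, so endothelial, stromal, immune and nerve cells of the tissue kept both genes. The labels give no age and no sex and do not state whether each library stems from its own animal, so the errors and p-values measure the spread between these libraries, part of which may be technical. The mean level of Stim1 was 91.2 ± 13.6 CPM in KO cold libraries and 124 ± 8.68 CPM in control cold, 74.0 ± 12.1 CPM in KO RT and 138 ± 16.9 CPM in control RT (SD). Every KO library lay below every control library of its temperature for Stim1 and for Stim2, and a 3′ tag need not lie in the deleted stretch. KO over control, Stim1 was at -0.45 in cold and -0.90 at RT (log2; edgeR adjusted p = 0.0570 and 0.349). Stim1 thus missed the threshold of 0.05 at both temperatures. Stim2 was called lower in cold (-0.88; edgeR adjusted p = 0.0382) and was not called at RT. Ucp1, the uncoupling protein that marks brown adipocytes, averaged 6641 ± 350.2 CPM in KO cold libraries and 8741 ± 839 CPM in control cold, against 3183 ± 649 CPM in KO RT and 3521 ± 474 CPM in control RT.

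Brown adipocytes burn fatty acids that are freed when noradrenaline raises cyclic AMP through beta-adrenergic receptors. Receptors coupled to inhibitory G proteins (Gi) lower cyclic AMP and so restrain this lipolysis, and several of them are switched on by the products of the same metabolism, such as lactate, ketone bodies and adenosine. Stim proteins open plasma membrane calcium channels when the stores run low, and the calcium that enters activates, among others, the calcineurin and NFAT pathway. The 10 genes do not all fit the antilipolytic description: the dopamine receptor Drd1 couples to stimulatory G proteins and raises cyclic AMP, P2rx5 encodes a cation channel, and Rgs2 encodes a protein that shortens signalling mainly by Gq-coupled receptors.

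Promoter sequences are shown for the 4 receptors with an entry that were called between cold and RT in both genotypes, to set genes that moved together or in opposite directions side by side, and for Rgs2, the tested gene in which letters of the cyclic AMP response element were found. The sequences are those of RefSeq for build GRCm38.p6, the 250 bases before each gene's annotated start, matched by symbol, whereas the counts were made on GRCm39. Of the 10 genes 8 had an entry, with 10 starts in all, and the first listed start is shown for Adora1 and Drd1. Capitals mark TGACG, the core of the cyclic AMP response element, and GGAAAA, the core bound by NFAT factors, on either strand (CGTCA and TTTTCC are the same letters read on the other strand). Each sequence runs 5′ to 3′ in the direction of its gene. The motifs, the genes shown and the letters in capitals were chosen after the data had been seen.
Hcar1, chr5:123880004-123880253, minus strand: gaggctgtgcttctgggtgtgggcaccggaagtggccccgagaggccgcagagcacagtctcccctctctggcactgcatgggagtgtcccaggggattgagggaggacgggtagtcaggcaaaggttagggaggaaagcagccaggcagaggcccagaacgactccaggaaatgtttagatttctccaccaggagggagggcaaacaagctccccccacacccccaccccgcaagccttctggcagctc
Ptger3, chr3:157566626-157566875, plus strand: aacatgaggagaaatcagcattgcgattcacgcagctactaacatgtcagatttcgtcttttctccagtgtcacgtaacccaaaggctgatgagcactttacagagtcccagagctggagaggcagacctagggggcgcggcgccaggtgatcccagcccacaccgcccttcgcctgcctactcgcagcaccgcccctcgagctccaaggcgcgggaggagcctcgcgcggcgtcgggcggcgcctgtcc
Adora1, chr1:134235458-134235707, minus strand: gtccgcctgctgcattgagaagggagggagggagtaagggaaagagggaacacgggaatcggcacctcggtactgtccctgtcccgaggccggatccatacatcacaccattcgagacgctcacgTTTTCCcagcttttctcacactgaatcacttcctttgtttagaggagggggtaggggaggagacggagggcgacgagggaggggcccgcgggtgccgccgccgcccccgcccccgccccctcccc
Drd1, chr13:54055659-54055908, minus strand: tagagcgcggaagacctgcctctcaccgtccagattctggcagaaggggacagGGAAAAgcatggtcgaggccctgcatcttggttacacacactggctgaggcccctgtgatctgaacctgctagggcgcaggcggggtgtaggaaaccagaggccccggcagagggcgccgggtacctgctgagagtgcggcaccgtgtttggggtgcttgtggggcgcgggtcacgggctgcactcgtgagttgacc
Rgs2, chr1:144004150-144004399, minus strand: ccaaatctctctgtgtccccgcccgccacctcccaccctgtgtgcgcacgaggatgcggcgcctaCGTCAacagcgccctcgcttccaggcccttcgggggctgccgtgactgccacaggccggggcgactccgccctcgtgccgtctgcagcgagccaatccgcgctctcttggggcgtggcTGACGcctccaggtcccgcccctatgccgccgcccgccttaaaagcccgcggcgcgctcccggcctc

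Rgs2 held TGACG in both orientations, starting 185 and 67 bases before the start, and Adra2a held it once, 69 bases before the start. TGACG lies in 17.7% of all 32817 windows of this length. GGAAAA was present 125 bases before the first start of Adora1 and 197 bases before the first start of Drd1, and it lies in 20.4% of all windows. The full element TGACGTCA, which contains TGACG and lies in 1.55% of windows, the nuclear receptor core AGGTCA (14%) and its direct repeat with a spacer of 1 base (0.0335%), which contains AGGTCA, were in no window of the 8 genes. The TATA box core TATAAA, present in 12.4% of windows, was found only in Adra2a among these windows, 29 bases before the start. Hcar1, Ptger3, Ffar4 and Npy1r held none of the searched letters. A match is a string of letters and was not tested as a binding site, and the absence of a match concerns these windows only.

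In both genotypes Hcar1, Adora1, Ptger3 and P2rx5 fell in cold and Drd1 rose, and Hcar2 fell in KO. Hcar1 encodes the Gi-coupled lactate receptor of adipocytes and had the lowest fitted fold of the 8 genes for which one is given. Its level was 0.612, 1.04, 2.25 and 1.69 CPM in KO cold libraries and 1.15, 0, 6.19 and 0.706 CPM in control cold, against 69.4, 83.2 and 42.0 CPM in KO RT and 70.4 and 50.0 CPM in control RT. CPM here are counts divided by library size after edgeR's TMM scaling of the libraries. Every cold library lay far below every RT library in both genotypes. The underlying counts were 1 to 4 in KO cold and 0 to 10 in control cold, against 80 to 145 in KO RT and 83 to 153 in control RT. Cold over RT, Hcar1 fell by 5.45 ± 0.47 in KO (log2, SE; adjusted p = 2.59e-06) and fell by 4.85 ± 0.49 in control (adjusted p = 7.17e-06). Without control cold library 3, which held 10 of the 13 counts of its group, Hcar1 fell by 6.44 in control (adjusted p = 1.37e-06). The deposited table gives Hcar1 only as an Ensembl identifier (ENSMUSG00000049241.7) without a symbol or chromosome, and the symbol was taken from a reference gene table.

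Hcar2, on chromosome 5, encodes the related Gi-coupled receptor for the ketone body beta-hydroxybutyrate and for niacin. It had 2.45, 0.522, 3.38 and 2.82 CPM in KO cold libraries and 4.03, 6.80, 2.48 and 1.41 CPM in control cold, against 22.8, 17.8 and 8.92 CPM in KO RT and 12.9 and 6.63 CPM in control RT. The KO groups did not overlap, whereas control cold library 2 lay above control RT library 2. In KO the gene fell by 2.83 ± 0.49 (log2; adjusted p = 0.000761). In control the fold was -1.40 ± 0.53 with an adjusted p of 0.0649, which missed the threshold of 0.05. That call depended on the filter and on the libraries used: the adjusted p was 0.0155 when genes with low counts were kept in the fit of all libraries, 0.0309 without control cold library 2, 0.0449 without control RT library 2 and 0.0491 without KO RT library 3. The difference between the cold responses, KO minus control, was -1.43 ± 0.76 with a 95% interval of -3.03 to 0.16, so the data do not separate the genotypes and leave room for a difference of several fold.

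Adora1, on chromosome 1, encodes the adenosine A1 receptor, a Gi-coupled receptor that restrains lipolysis when adenosine accumulates outside the cell. Its level was 41.0, 40.2, 39.4 and 72.8 CPM in KO cold libraries and 46.7, 53.1, 66.3 and 46.6 CPM in control cold, against 178, 142 and 126 CPM in KO RT and 218 and 160 CPM in control RT. No cold library reached the lowest RT library of its genotype. Cold over RT, Adora1 fell by 1.62 ± 0.21 in KO (log2; adjusted p = 7.71e-05) and fell by 1.83 ± 0.23 in control (adjusted p = 4.75e-05). The reference annotation places Mybph over Adora1 on the opposite strand, and Mybph had at most 0.497 CPM as a group mean. KO cold library 4 stood apart from the other KO cold libraries in Adora1 and in Rgs2.

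Ptger3, on chromosome 3, encodes the EP3 receptor for prostaglandin E2, which couples mainly to Gi. It had 6.12, 4.17, 9.0 and 5.08 CPM in KO cold libraries and 6.34, 7.41, 10.5 and 4.94 CPM in control cold, against 44.1, 41.9 and 29.9 CPM in KO RT and 58.9 and 32.5 CPM in control RT. The groups of a genotype were far apart, and those of a temperature overlapped. Ptger3 fell by 2.66 ± 0.29 in KO (log2, cold over RT; adjusted p = 1.91e-05) and fell by 2.64 ± 0.30 in control (adjusted p = 2.79e-05). The difference between these responses was -0.02 ± 0.39 with an interval of -0.83 to 0.80.

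P2rx5, on chromosome 11, encodes an ATP-gated cation channel subunit that is used as a surface marker of brown adipocytes. Its level was 9.18, 15.1, 10.1 and 17.5 CPM in KO cold libraries and 9.22, 8.03, 12.4 and 9.18 CPM in control cold, against 65.8, 72.9 and 67.7 CPM in KO RT and 108 and 56.6 CPM in control RT. The RT libraries lay above all cold libraries, and both control RT libraries differed widely from each other. P2rx5 fell by 2.39 ± 0.24 in KO (log2, cold over RT; adjusted p = 7.40e-06) and fell by 3.08 ± 0.27 in control (adjusted p = 3.06e-06). The difference of the responses, KO minus control, was 0.69 ± 0.37 (interval -0.10 to 1.48; adjusted p = 0.661). Emc6 lies near P2rx5 on the opposite strand and did not overlap it in the reference annotation, and it passed no test.

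Drd1, on chromosome 13, encodes the dopamine D1 receptor and moved the other way. It had 12, 12, 12 and 10 counts in KO cold and 29, 12, 5 and 42 counts in control cold, against 0, 1 and 0 counts in KO RT and 0 and 0 counts in control RT. In CPM these were 7.34, 6.26, 6.75 and 5.64 in KO cold and 16.7, 7.41, 3.10 and 29.6 in control cold, and the KO RT library with its 1 count had 0.574 CPM. All cold libraries held more counts than all RT libraries, and the control cold libraries were widely spread while the KO cold libraries were close together. Because RT counts were at or near 0, no fitted fold is given. In KO the total was 46 counts in cold and 1 count at RT, a ratio of 36.4 after scaling to library size with an exact 95% counting interval of 6.22 to 1470 (edgeR adjusted p = 0.00790). In control the total was 88 counts in cold and 0 at RT, which is at least 17.6-fold higher when the RT group is set at a floor of 3 counts over the group (adjusted p = 0.00157). A count of 0 in an RT library allows up to 1.38 to 1.81 CPM, depending on the library, and these intervals and floors cover counting error only.

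**Figure D1:**
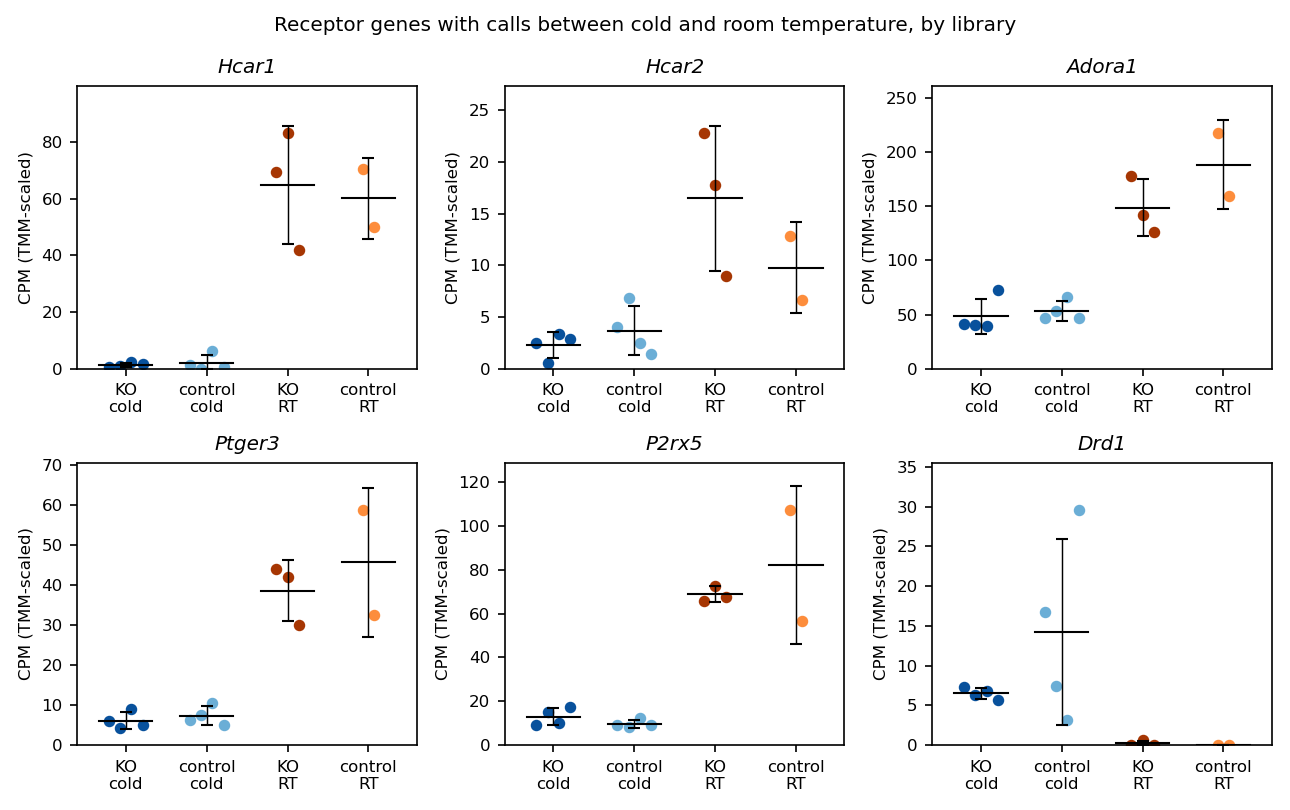
Level of 6 receptor genes in each library, in TMM-scaled CPM on a linear axis from 0, for KO cold, control cold, KO RT and control RT (4, 4, 3 and 2 libraries). Points are libraries, horizontal lines are group means and bars are SDs cut off at 0; Hcar1, Hcar2, Adora1, Ptger3 and P2rx5 sit lower in cold and Drd1 higher, and the genotypes overlap at each temperature.

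Ffar4, Npy1r and Rgs2 passed the threshold in no comparison with all libraries when genes with low counts were left out of the fit, and Adra2a was not tested. Ffar4, on chromosome 19, encodes a receptor for long-chain fatty acids. It had 66.1, 69.4, 90.0 and 92.6 CPM in KO cold libraries and 58.7, 104, 123 and 34.6 CPM in control cold, against 49.1, 70.0 and 69.3 CPM in KO RT and 40.0 and 60.9 CPM in control RT. The groups overlapped, with the control cold libraries spread most. The fold of cold over RT was 0.34 ± 0.31 in KO and 0.68 ± 0.36 in control (log2; adjusted p = 0.472 and 0.177). The call in control depended on the processing: the value was 0.71 with an adjusted p of 0.00558 when genes with low counts were kept in the fit, and 0.93 with an adjusted p of 0.0285 without control cold library 4. Rbp4 lies near Ffar4 on the opposite strand without overlap, and it passed no test either.

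Npy1r, on chromosome 8, encodes the Gi-coupled Y1 receptor for neuropeptide Y, a transmitter released with noradrenaline by sympathetic nerves. It held 3, 9, 13 and 7 counts in KO cold and 6, 9, 3 and 16 counts in control cold, against 5, 9 and 8 counts in KO RT and 2 and 5 counts in control RT. The groups overlapped. With so few counts the intervals were wide: the fold of cold over RT was 0.19 in KO (interval -1.0 to 1.38) and 1.51 in control (interval -0.05 to 3.07; log2). Adra2a, also on chromosome 19, encodes the alpha-2A adrenergic receptor through which noradrenaline itself restrains lipolysis. It had no count in the KO cold libraries and 1 count in the control cold group, against 2 counts in KO RT and 1 count in control RT, at most 1 in a library. The 4 KO cold libraries allow up to 1.57 to 1.84 CPM each, so its level could not be followed at this depth.

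Rgs2, on chromosome 1, encodes a regulator of G protein signalling that acts as a brake on G protein alpha subunits. It had 231, 133, 203 and 991 CPM in KO cold libraries and 334, 681, 476 and 285 CPM in control cold, against 372, 272 and 714 CPM in KO RT and 509 and 657 CPM in control RT. KO cold library 4 was higher than any other library, and the other KO cold libraries lay below all control cold libraries. With all libraries, the fold of KO over control in cold was -0.19 ± 0.48 (log2; adjusted p = 0.867), and without that library it was -1.24 with an adjusted p of 0.0454. The fold of cold over RT in KO was -0.22 ± 0.52 with all libraries (adjusted p = 0.808) and -1.26 without that library (adjusted p = 0.0178). A statement on Rgs2 in KO thus rests on 1 library.

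**Figure D2:**
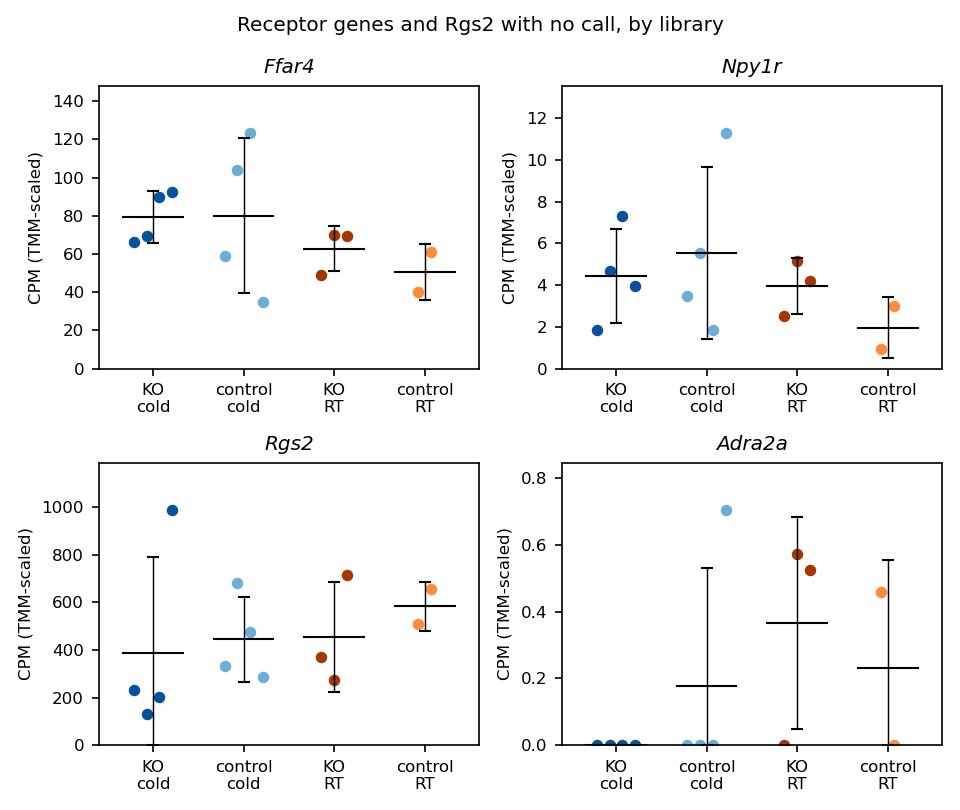
Level of Ffar4, Npy1r, Rgs2 and Adra2a in each library, in TMM-scaled CPM on a linear axis from 0, for KO cold, control cold, KO RT and control RT. Points are libraries, lines are means and bars are SDs cut off at 0; the groups overlap in each gene, KO cold library 4 of Rgs2 lies at 991 CPM, and no Adra2a library holds more than 1 count.

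Between cold and RT, 6 of the 9 tested genes passed the threshold in KO (5 lower, 1 higher) and 5 in control (4 lower, 1 higher). Over all tested genes, 9.45% were called lower and 9.43% higher in KO, and 12.6% lower and 12.7% higher in control. The groups did not overlap for 6 of the 9 genes in KO and 5 in control, against 32.2% and 40.4% of all tested genes. Since the genes were picked with results in view, these counts describe the choice. They also lean on the count filter, which Hcar1 and Hcar2 passed through RT libraries and Drd1 through cold libraries. A call of these genes could hardly have had the other direction. The median fold over the 9 genes was -1.62 in KO and -1.40 in control (log2), beside -0.011 and -0.017 over all tested genes. In each of Hcar1, Hcar2, Adora1, Ptger3 and P2rx5 both RT means lay above both cold means, whereas within a temperature the genotypes overlapped. Across the 13 libraries the log2 CPM of Hcar1 correlated with that of Ptger3 (r = 0.97), P2rx5 (0.96) and Adora1 (0.94) and inversely with that of Drd1 (-0.92), a description that rests on the libraries falling into a cold and an RT set and on their shared scaling.

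**Figure D3:**
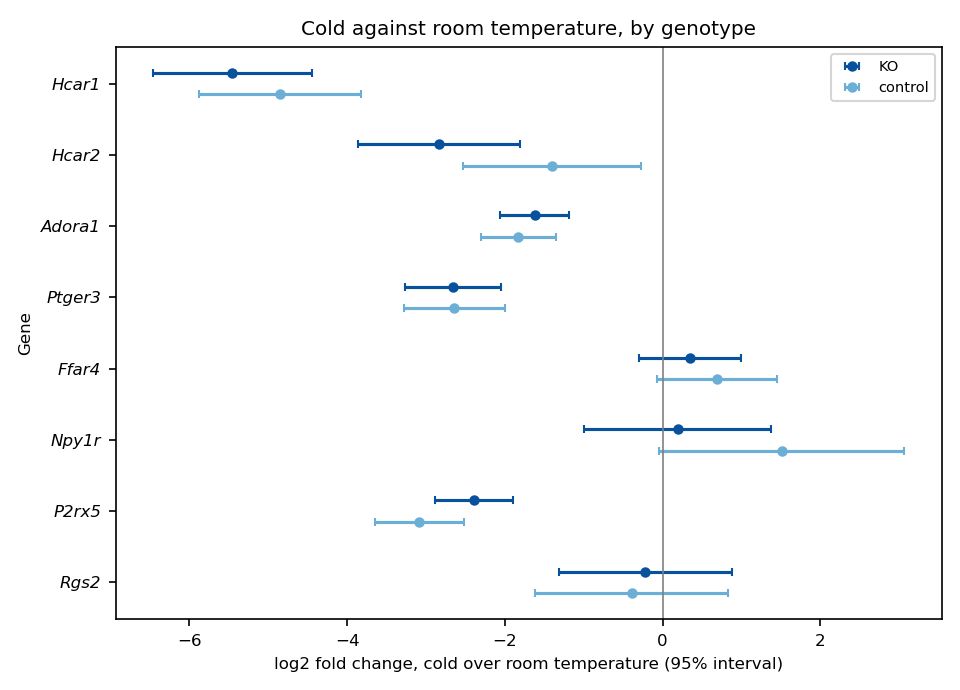
Fitted log2 fold change of cold over room temperature with its 95% interval (horizontal axis) for 8 genes, with KO above control in each pair. Hcar1, Adora1, Ptger3 and P2rx5 lie below 0 in both genotypes, Hcar2 is called only in KO, and the intervals of Ffar4, Npy1r and Rgs2 cross 0; Drd1 is left out because its RT groups held 0 or 1 count.

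Between KO and control none of the 9 tested genes passed the threshold at either temperature. In cold, edgeR called 0 of the 9 (5.93% of all genes were called), 1 gene, Drd1, had an unadjusted p under 0.05, and DESeq2 called 0. Drd1 averaged 6.50 ± 0.723 CPM in KO cold libraries and 14.2 ± 11.8 CPM in control cold (SD), a fold of -1.10 ± 0.50 (log2; edgeR adjusted p = 0.226), and the KO values lay within the control range. Without control cold library 4 that fold was -0.49 (adjusted p = 0.614) and without control cold library 3 it was -1.44 (adjusted p = 0.0570). When genes with low counts were also kept in the fit, the adjusted p of Drd1 was 0.0278. The folds of the other genes, KO over control in cold, were between -0.71 (Hcar2) and 0.42 (P2rx5). Their intervals were narrowest for Adora1 (-0.58 to 0.30) and widest for Hcar1 (-2.27 to 1.25).

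At RT edgeR called 0 of the 9 genes and 0 of all 11073 genes (0%), with 0 and 346 at an unadjusted p under 0.05, while DESeq2 called 0 of the 9 and 3 of all. The RT comparison had 3 and 2 libraries. Its intervals ran from -0.84 to 0.15 for Adora1 and from -0.64 to 0.83 for Hcar1, and wider from -0.27 to 1.72 for Hcar2, -1.66 to 0.93 for Rgs2 and -0.61 to 2.72 for Npy1r. For Drd1, with 1 count in KO RT and 0 in control RT, no fold is given. For the difference between the cold responses, edgeR called 0 of the 9 genes, none had an unadjusted p under 0.05 and DESeq2 called 0, beside 2 of all genes (0.0181%) in edgeR. The receptor values of the KO cold and control cold groups enter both the genotype comparison and the cold responses, so these comparisons share libraries. A p that misses the threshold does not show that the genotypes were alike.

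**Figure D4:**
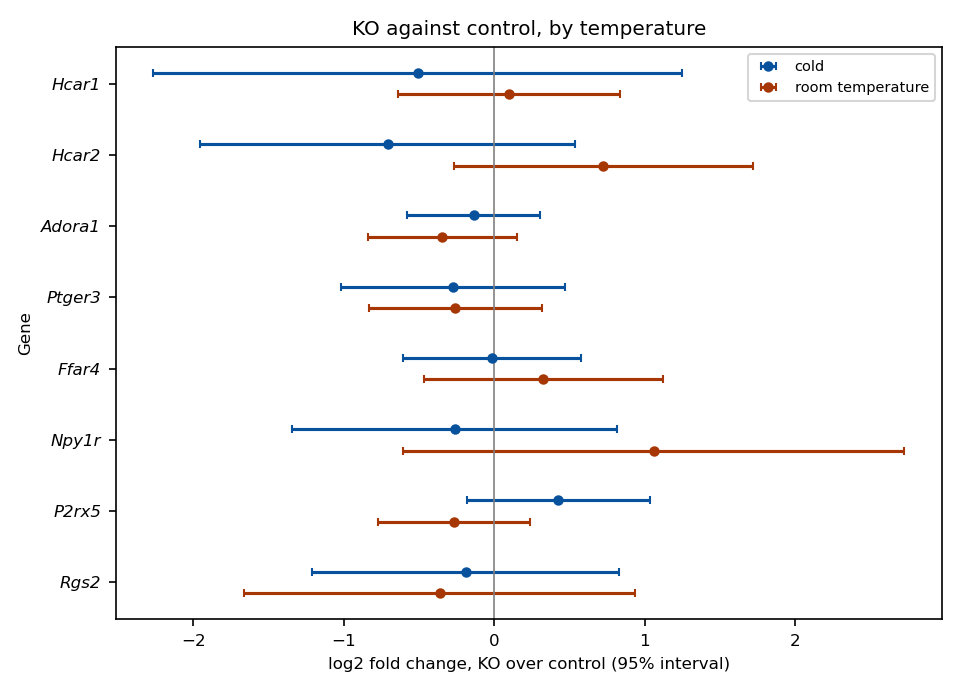
Fitted log2 fold change of KO over control with its 95% interval (horizontal axis) for 8 genes, with cold above room temperature in each pair. Every interval includes 0, the narrowest being that of Adora1 in cold (-0.58 to 0.30); Drd1 is left out because its RT groups held 0 or 1 count.

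Other receptors of the same kind, taken from lists that were likewise drawn up with earlier results known, also differed with temperature. Of the Gi-coupled and antilipolytic receptors that are not among the 10 genes, 5 were tested, and in both genotypes 3 were called lower and 1 higher in cold (80%, beside 18.9% of all tested genes in KO and 25.2% in control). Among these, Sucnr1 held at most 6 counts in a cold library and Aplnr at most 2. Both passed the count filter through RT libraries. A call of theirs could hardly be anything but lower, so the share leans on the filter. Sucnr1, the succinate receptor, averaged 1.95 ± 0.846 CPM in KO cold libraries and 1.07 ± 0.515 CPM in control cold, against 8.72 ± 0.737 CPM in KO RT and 6.68 ± 1.64 CPM in control RT (SD). It fell by 2.11 ± 0.38 in KO and fell by 2.52 ± 0.49 in control (log2; adjusted p = 0.00106 and 0.00160). Ffar2, a receptor for short-chain fatty acids, averaged 7.91 ± 3.68 CPM in KO cold libraries and 4.93 ± 2.26 CPM in control cold, against 25.3 ± 14 CPM in KO RT and 27.9 ± 14.2 CPM in control RT. It fell by 1.68 ± 0.43 in KO and fell by 2.44 ± 0.51 in control (adjusted p = 0.0120 and 0.00255). Aplnr, the apelin receptor, held 3 counts in KO cold and 0 in control cold, against 26 in KO RT and 30 in control RT. That is a ratio of 10.9 for RT over cold in KO (exact interval 3.35 to 56.5) and at least 16.7-fold lower in control cold. The 2 control RT libraries held 3 and 27 of these counts, and the interval and the bound cover counting error only. Insr, the insulin receptor, rose by 0.55 ± 0.15 in KO and by 0.60 ± 0.18 in control, and Gabbr1 did not pass. The median over these 5 genes was -1.68 in KO and -2.44 in control. In KO against control in cold Insr was at 0.46 ± 0.14 (adjusted p = 0.0696), which missed the threshold.

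On the list of lipid and metabolite receptors, 8 genes outside the 10 were tested, Sucnr1 and Ffar2 included. In each genotype 3 were called lower and 1 higher (50%, beside 18.9% of all genes in KO and 25.2% in control). The lower call of Sucnr1 leans on the count filter here too. Lpar4, a lysophosphatidic acid receptor, fell by 1.17 ± 0.31 in KO and fell by 1.14 ± 0.34 in control (log2; adjusted p = 0.0153 and 0.0230). S1pr1, a sphingosine 1-phosphate receptor prominent in endothelium, averaged 204 ± 36.4 CPM in KO cold libraries and 206 ± 40.7 CPM in control cold, against 105 ± 16.4 CPM in KO RT and 113 ± 39.1 CPM in control RT, and rose by 0.96 ± 0.20 in KO and by 0.87 ± 0.23 in control. Among receptors for purines and the enzymes that handle them, 12 were tested beside Adora1 and P2rx5. In KO 2 fell and 1 rose, and in control 3 fell (25% in each, close to the 25.2% of all genes in control and beside 18.9% in KO). Entpd5, a nucleoside diphosphatase, fell by 0.78 ± 0.13 in KO and fell by 0.60 ± 0.15 in control. P2rx6, another ATP-gated channel subunit, was at -0.89 ± 0.45 in KO (adjusted p = 0.185) and fell by 1.41 ± 0.50 in control (adjusted p = 0.0476). P2ry1, an ADP receptor, fell by 1.17 ± 0.30 in KO and fell by 0.99 ± 0.35 in control, while Adora2a, the Gs-coupled adenosine receptor, rose in KO by 0.91 ± 0.31 (adjusted p = 0.0469) and was at 0.38 ± 0.36 in control (adjusted p = 0.472).

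The proteins that carry and end receptor signals were read next. Of 17 tested G protein subunits, 2 were called lower and 0 higher in KO (11.8%, beside 18.9% of all genes called). In control 3 were called lower and 1 higher (23.5%, close to the 25.2% of all genes). The inhibitory alpha subunits Gnai1, Gnai2 and Gnai3 passed no test, with folds of cold over RT of -0.20, -0.38 and -0.25 in KO and 0.28, -0.38 and 0.20 in control. Gng7, a gamma subunit, held 6 counts in KO cold and 2 in control cold, against 27 in KO RT and 18 in control RT. Of 13 regulators of G protein signalling and desensitisation besides Rgs2, 3 fell in each genotype (23.1%, beside 18.9% of all genes called in KO and 25.2% in control). Arrb1, a beta-arrestin that uncouples receptors, fell by 0.95 ± 0.27 in KO and fell by 1.24 ± 0.29 in control. In KO against control in cold, Grk5, a receptor kinase, was the gene of that list that was called, at 19.9 ± 1.99 CPM in KO cold libraries and 40.1 ± 9.39 CPM in control cold (-1.01 ± 0.20; adjusted p = 0.00618).

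Genes that supply or remove ligands were read from further lists. Slc22a3, a low-affinity carrier that clears catecholamines, averaged 38.1 ± 11.8 CPM in KO cold libraries and 22.6 ± 13.2 CPM in control cold, against 114 ± 17.6 CPM in KO RT and 112 ± 13.5 CPM in control RT. It fell by 1.57 ± 0.28 in KO and fell by 2.29 ± 0.33 in control. Maob, which breaks down dopamine, fell in KO by 0.72 ± 0.12 and was at -0.10 ± 0.13 in control, and in cold it was lower in KO than in control (133 ± 10.3 CPM in KO cold, 189 ± 19.9 CPM in control cold; -0.51 ± 0.11, adjusted p = 0.0121). The difference between the responses of Maob was not called. Of 4 tested genes of this list besides Drd1, 2 fell in KO (50%, beside 18.9% of all genes). In control 1 fell (25%, close to the 25.2% of all genes). Drd2 had no count in any library. Of 9 prostaglandin genes besides Ptger3, 3 fell in KO (33.3%), and 1 fell and 1 rose in control (22.2%), beside 18.9% and 25.2% of all genes. Ptges3, a prostaglandin E synthase and chaperone cofactor, rose by 0.60 ± 0.14 in control (adjusted p = 0.00499) and was at 0.35 ± 0.12 in KO (adjusted p = 0.0526). Plaat3, a phospholipase A of adipocytes, fell by 0.53 in KO and fell by 0.50 in control (log2). Of 9 genes of the neuropeptide Y system, Npy1r was the one with enough counts to test.

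Of 12 genes for lactate and ketone body supply, 1 rose and 1 fell in KO (16.7%), and 2 rose and 1 fell in control (25%), shares close to the 18.9% and 25.2% of all genes. Slc16a7, a monocarboxylate carrier, fell by 1.71 ± 0.23 in KO and fell by 2.06 ± 0.26 in control (log2; adjusted p = 0.000109 and 5.67e-05). Slc16a1, another such carrier, rose by 0.61 in KO (adjusted p = 0.0251). Bdh1, a ketone body dehydrogenase, held 7 counts in KO cold and 177 in control cold, against 3 in KO RT and 0 in control RT. Among 18 genes of the lipolysis machinery, 3 rose and 1 fell in KO in cold (22.2%, close to the 18.9% of all genes), and 5 rose and 3 fell in control (44.4%, beside 25.2%). Prkar1a, a regulatory subunit of protein kinase A, rose by 0.44 ± 0.11 in KO and by 0.78 ± 0.13 in control. Pde3b, the phosphodiesterase through which insulin lowers cyclic AMP, rose by 0.71 ± 0.13 in KO and by 0.80 ± 0.15 in control. In KO against control in cold, 3 of the 18 were higher and 3 lower, beside 2.44% of all genes called higher and 3.49% lower. Abhd5, the co-activator of adipose triglyceride lipase, was lower, at 141 ± 10.99 CPM in KO cold libraries and 269.8 ± 58.8 CPM in control cold (-0.93 ± 0.16; adjusted p = 0.00211). It averaged 125 ± 10.8 CPM in KO RT and 144 ± 39.8 CPM in control RT. Cold over RT in control, Abhd5 rose by 0.92 ± 0.20 (edgeR adjusted p = 0.00349). Pde3a, a phosphodiesterase, was lower too (-0.90 ± 0.18; adjusted p = 0.00752). Lipe, the hormone-sensitive lipase, was higher, at 549 ± 26.4 CPM in KO cold libraries and 362 ± 65.7 CPM in control cold (0.60 ± 0.11; adjusted p = 0.00472). Its RT means were 568 ± 8.34 CPM in KO and 568 ± 7.11 CPM in control. Cold over RT in control, Lipe fell by 0.65 ± 0.13 (edgeR adjusted p = 0.00255), so control cold was the group that stood apart. The median folds of cold over RT over the genes outside the 10 were -0.60 in KO and -0.46 in control for the lipid and metabolite receptors, and -0.26 and -0.18 for the purine list. They were -0.11 and 0.08 for G protein subunits, -0.32 and -0.41 for the desensitisation list, and -0.52 and -0.17 for the catecholamine list, each time KO and then control. They were -0.53 and 0.026 for prostaglandin genes, 0.037 and 0.10 for lactate and ketone supply and 0.14 and 0.07 for lipolysis.

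**Figure D5:**
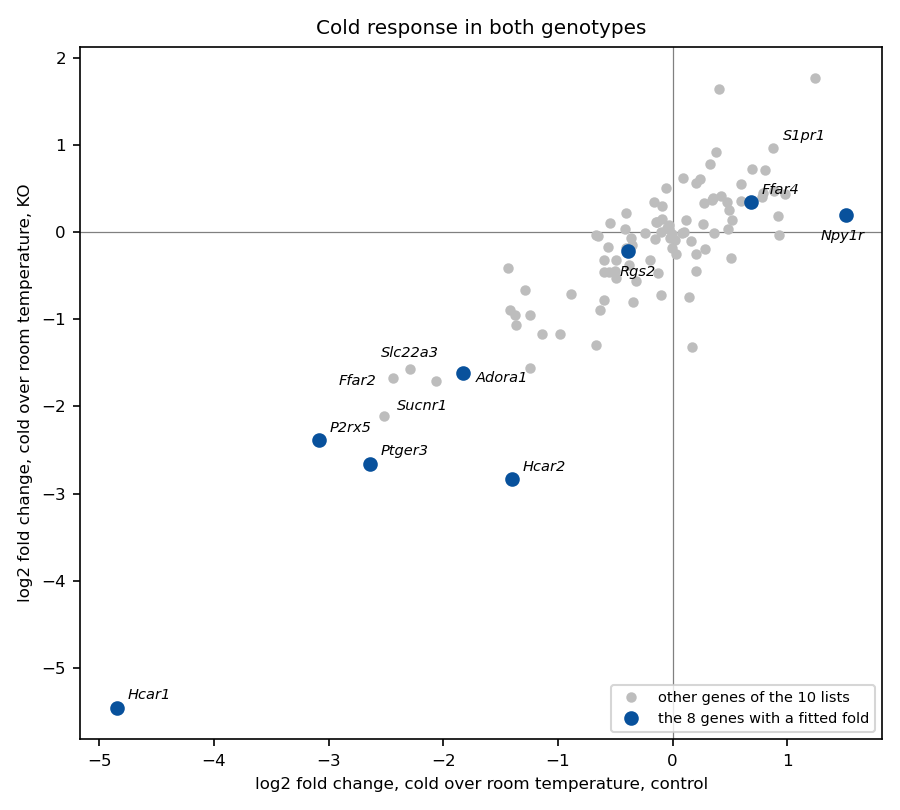
Fitted log2 fold change of cold over room temperature in KO (vertical axis) against that in control (horizontal axis) for 8 of the 10 genes (blue) and 93 other genes of the 10 lists (grey). Genes with a group of 3 or fewer counts in all are left out (4 genes, Drd1 among them); Hcar1 lies lowest, at -5.45 in KO and -4.85 in control.

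Markers of other cell types were counted beside these results. In bulk tissue, fewer cells of a type and less RNA per cell cannot be told apart. The summed level of 8 skeletal muscle markers was 0.612 to 194 CPM in KO cold libraries and 1.24 to 153 CPM in control cold, against 49.9 to 953 CPM in KO RT and 13.3 to 1605 CPM in control RT. In KO 2 of the 8 fell (25%, not far from the 18.9% of all genes called). In control 5 of the 8 fell (62.5%, beside 25.2%). The summed level of 10 neutrophil and mast cell markers was 4.51 to 15.9 CPM in KO cold libraries and 9.22 to 16.1 CPM in control cold, against 25.2 to 44.6 CPM in KO RT and 21.7 to 57.9 CPM in control RT. Of the 3 of them that were tested (Kit, S100a8 and S100a9), 2 fell in KO (66.7%) and 3 in control (100%). These shares stand beside 18.9% of all genes called in KO and 25.2% in control. In a cold library Kit held at most 7 counts, S100a8 at most 6 and S100a9 at most 5. All 3 passed the count filter through RT libraries, so the direction of these calls was close to fixed in advance. Mpo, a defining neutrophil gene, had no count. The part of muscle, neutrophils and mast cells in the receptor results was not tested. Of 8 fibroblast markers 5 fell in cold in KO (62.5%, beside 18.9% of all genes called) and 0 were called in control (beside 25.2%). Their median fold of cold over RT was -1.13 in KO and -0.12 in control (log2). The 8 summed to 561 to 655 CPM in KO cold libraries and 518 to 1494 CPM in control cold, against 683 to 1363 CPM in KO RT and 897 to 938 CPM in control RT, and their part was not tested. The 12 adipocyte markers summed to 32704 to 34648 CPM in KO cold libraries and 36870 to 43283 CPM in control cold, against 23763 to 26518 CPM in KO RT and 22352 to 26342 CPM in control RT, and the part of the adipocyte share was not tested. Th and Dbh, which mark noradrenergic nerves, had no count in any library.

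The tested genes whose log2 CPM was most like that of each gene over the 13 libraries were found by Pearson correlation, as a description. For Hcar1 these were Tmem43 (r = 0.984), Klhdc7a (0.981) and Rab3d (0.976), and within the 8 cold libraries alone their r was 0.846, 0.817 and 0.715. Tmem43 averaged 30.5 ± 1.63 CPM in KO cold libraries and 30.7 ± 5.69 CPM in control cold, against 103.3 ± 14 CPM in KO RT and 96.1 ± 9.79 CPM in control RT. Rab3d was also among the nearest genes of P2rx5 (0.977), beside Gm49492 (0.980) and Ampd2 (0.979), and Klhdc7a among those of Ptger3 (0.972), beside Klhl2 (0.976) and Col15a1 (0.974). Klhl2 was nearest to Hcar2 as well (0.931), followed by Mettl7a1 (0.926) and Dera (0.924). Nrep, Gm9885 and 1810059H22Rik were nearest to Adora1 (0.973, 0.969 and 0.968). For Drd1 the nearest were Zbtb38 (0.978), Npm1 (0.974) and the lipid droplet protein gene Plin2 (0.972), with 0.950, 0.927 and 0.917 in the cold libraries alone. Plin2 averaged 1369 ± 247 CPM in KO cold libraries and 1854 ± 649 CPM in control cold, against 621 ± 87.2 CPM in KO RT and 636 ± 115 CPM in control RT. For the genes without a call the highest r over the 13 libraries was lower: E2f6 (0.869) for Ffar4, Utp6 (0.868) for Npy1r and Map2k1 (0.872) for Rgs2. Within the 8 cold libraries alone their r was 0.872, 0.912 and 0.876. There Tmem43 with Hcar1 was at 0.846 and Zbtb38 with Drd1 at 0.950, so the lower r did not hold throughout. These points share their libraries, depth and scaling.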

How the data were processed

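Total RNA of brown adipose tissue from 13 libraries was sequenced from the 3′ end with a QuantSeq kit, per the labels' protocols, and all libraries carry the same batch label. What the authors deposited are raw, unscaled counts for each Ensembl gene. Build GRCm39 and the tools STAR 2.7.10b, HTSeq 0.12.3, UMI-tools 1.1.2, limma, edgeR and Trim Galore 0.6.7 are named in the submitters' processing notes, with no role given. The use of strand and of molecular identifiers when tags were counted is not given in the sources used here. Intervals on counts thus cover counting error alone, and reads of overlapping genes cannot be separated.

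The table had 55632 lines, and 275 repeats of an identifier with the same counts were dropped. Of 2558 identifiers without a symbol, 387 took one from a reference gene table, Hcar1 among them. With edgeR 4.0.16 (R 4.3.3), filterByExpr at a minimum count of 10 selected the genes, and libraries were scaled by TMM. The filter did not ask for counts at both temperatures. A gene that entered through either temperature alone could hardly be called anything but higher there. A single quasi-likelihood model covered the 13 libraries, with a term for each group (common biological coefficient of variation 16.1%). The 5 contrasts were KO against control in cold and at RT, cold over RT within KO and within control, and how the cold responses differ, each two-sided with Benjamini-Hochberg adjustment over 11073 genes and a threshold of 0.05. CPM divide a count by the tested genes' total times the TMM factor. A group with 0 counts was set at 3 counts in all to give a bound on the fold, and a group with 1 to 3 counts has its ratio of totals printed beside an exact 95% interval. Log2 CPM for correlations used a prior count of 2. The fit was tested on simulated data with known changes first.

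No library pair of a group differed as little as sampling noise allows (chi-square per degree of freedom 1.92 to 6.36, r of log2 CPM 0.938 to 0.975). The 10 genes and all gene and marker lists were chosen with earlier results of these data known. Named were the 10 genes, Stim1, Stim2 and Ucp1 as checks, up to 4 further genes per list with the smallest p past the threshold in KO against control in cold or in cold against RT in control, and the 3 most correlated genes of each. Gabbr1, Adora2a, Pde3a, the Gnai genes, Drd2, Slc16a1, the overlapping or nearby genes and the markers were named after their values were seen. Alternatives were another normalization, DESeq2 1.42.0, no filter, the compared groups alone, a replicate block and leaving out each library.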

Additional observations from a re-analysis of the deposited data

Results flagged for a closer look

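In 3 of 19 sets of 4 cold libraries, each set being a gene in a genotype, a library stood apart from the others. The measure was the gap to its neighbour over the whole range (Dixon's test at its 95% critical value). Chance alone gives this in about 1 in 20 sets if values are normally distributed, which low counts need not be. KO cold library 4 had 991 CPM of Rgs2, against 133 to 231 CPM in the other KO cold libraries. The same library had 72.8 CPM of Adora1, against 39.4 to 41.0 CPM in the others, and its skeletal muscle and neutrophil marker sums were 119 and 4.51 CPM. Control cold library 4 had 0.706 CPM of Adra2a, which is 1 count where the other control cold libraries had none, so the ratio is at its maximum by construction and says nothing about that library.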

How the results depend on the processing

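Each called value of Hcar1, Adora1, Ptger3, P2rx5 and Drd1, and that of Hcar2 in KO, kept its direction and its call under all 18 alternative settings. Counts of called genes moved as follows. Without the filter on low counts, 1 of the 10 genes (Drd1) was called in KO against control in cold, 7 against 5 for cold in control (Hcar2 and Ffar4 added; adjusted p = 0.0155 and 0.00558), 50 genes in KO against control at RT and 133 for the difference of the cold responses. DESeq2 called 3 at RT and 29 for the difference, against 0 and 2 in edgeR. With only the groups compared in the fit, 1685 genes were called for cold in control, against 2793. Without 1 library at a time, the counts were 392 to 716 in KO against control in cold, 0 to 3 at RT, 1219 to 2271 for cold in KO, 1067 to 2821 for cold in control (lowest without control RT library 1) and 0 to 4 for the difference, and among the 10 genes 0 to 1, 0, 6 to 7, 5 to 6 and 0. Of 16 same-numbered pairs of libraries from different groups, 3 correlated above 0.1 in their deviations from the group means (-0.227 to 0.333). Differently numbered pairs were not set beside them, so this check cannot decide whether the numbers pair libraries. With the replicate block the difference of the cold responses called 0 genes. Signs turned for values that were never called: with the replicate block Ffar4 in KO against control in cold (0.077), Npy1r for cold over RT in the KO (-0.053) and Rgs2 for the difference (-0.11), and with only the groups compared Ffar4 in cold (0.00019). Leaving out 1 library, KO over control in cold ran from -0.26 to 0.27 for Ffar4, -1.24 to 0.10 for Rgs2, -0.55 to 0.30 for Npy1r and -0.92 to 1.08 for Hcar1, and at RT from -0.12 to 0.36 for Hcar1, -0.64 to 0.27 for P2rx5 and -0.60 to 0.24 for Ptger3. Cold over RT in KO ran from -1.26 to 0.28 for Rgs2 and -0.056 to 0.43 for Npy1r. The difference ran from -0.87 to 0.68 for Rgs2, -0.51 to 0.34 for Ptger3, -0.059 to 0.41 for Adora1 and -1.02 to 0.98 for Hcar1. The cause of these shifts was not tested. Npy1r could not be fitted under 2 settings. Depth limits the values of Adra2a, Npy1r, Hcar2 and Drd1, and of Hcar1 in cold.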
